A study of Sus scrofa with 6 samples.

Results

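The chromatin of 10 genes that encode patterning factors of the neural tube was examined in pig embryos: SOX2, PAX6, NKX2-2, NKX6-1, OLIG2, DBX1, IRX3, LHX2, MSX1 and LMX1B. The genes were chosen by name, with earlier results of these data known. Their peaks were all those overlapping the gene body or the 20 kb on each side of it in the Sscrofa11.1 assembly. Peaks called in the 6 libraries were joined where they overlapped by at least 1 bp, which gave 95 regions for the 10 genes out of 294825 in the whole data set. Of these, 49 held a peak of all 6 libraries and could be tested, among 78533 such regions, and the windows of all 10 genes were tested among 24762 gene windows. Single-cell ATAC-seq was used, in which open DNA is cut by the transposase Tn5 and a barcode shows from which droplet a fragment came. The tissue was somite, the source of vertebrae and of the muscles of the trunk, on day 18 (E18) and day 21 (E21) of development, and myotome, the part of the somite that makes muscle, on day 28 (E28). At each stage there was 1 library of Tibetan pigs (ZZ) and 1 of the Duroc × Tibetan cross (DZ), and each library pooled 5 embryos of 1 sow. The labels name no treatment and no altered gene. At E28 a change of stage is also a change of tissue, and breed, sow and litter cannot be told apart within a stage.

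The neural tube lies between the paired somites and forms the spinal cord. SOX2 is a transcription factor of dividing neural progenitors. Along the dorsal to ventral axis, signals from the roof plate and Sonic hedgehog from the floor plate switch on different homeodomain and bHLH factors in bands of progenitors, and pairs of these factors repress each other at the borders. MSX1 and LMX1B belong to the dorsal end, PAX6, DBX1 and IRX3 to the dorsal and intermediate part, and OLIG2, NKX6-1 and NKX2-2 to the ventral part, where OLIG2 marks progenitors of motor neurons. LHX2 is best known from the forebrain, the eye and limb buds. Several of these genes also act outside the nervous system, as MSX1 and LMX1B do in limb mesenchyme.

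Sequences from regions whose counts changed, or which stand for a pattern described below, are shown as 200 bases read from the plus strand of Sscrofa11.1, 5′ to 3′. Except for PAX6, the bases lie at the centre of the stretch that every library with a peak there had called, and none of these 6 overlaps an annotated exon. Capitals mark matches on either strand to the motifs searched, which were TGGGTGGTC (GLI), ACAATG and ACAAAG (SOX), TAATTA (homeodomain), CAGCTG (E-box), ATGCAAAT (POU octamer) and GGAATG (TEAD). A match is a description of letters and not a site. The first sequence is from the region 13.4 kb downstream of SOX2 that held more counts than the region at its start in all libraries but E28 ZZ (chr13:119681657-119681856).
SOX2 downstream: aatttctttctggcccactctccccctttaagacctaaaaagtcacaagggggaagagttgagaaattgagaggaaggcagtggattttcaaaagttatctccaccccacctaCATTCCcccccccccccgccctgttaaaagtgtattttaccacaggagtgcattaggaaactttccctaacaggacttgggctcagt
The next comes from the region 20.1 kb upstream of MSX1 that was open at E18 and nearly lost its peaks by E28 (chr8:5652786-5652985), and holds no match.
MSX1 upstream: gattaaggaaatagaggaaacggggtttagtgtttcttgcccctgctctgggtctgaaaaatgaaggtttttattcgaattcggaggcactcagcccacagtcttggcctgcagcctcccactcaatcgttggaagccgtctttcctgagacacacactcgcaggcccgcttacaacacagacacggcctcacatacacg
On the other side of MSX1, 11.8 kb downstream of its start, lies a region whose counts fell between E18 and E28 (chr8:5619896-5620095). Per base of called sequence its log2 fold change turned to 0.80. The 200 bases hold 5 matches to the E-box.
MSX1 downstream: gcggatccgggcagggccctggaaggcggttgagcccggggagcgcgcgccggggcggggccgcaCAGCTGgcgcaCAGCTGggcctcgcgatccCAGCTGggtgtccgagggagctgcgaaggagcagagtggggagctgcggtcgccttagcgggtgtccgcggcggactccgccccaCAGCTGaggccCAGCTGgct
The region downstream of IRX3 had the largest fold change of the 49 in counts per region (chr6:31054135-31054334). Per base of called sequence its log2 fold change was -0.02.
IRX3 downstream: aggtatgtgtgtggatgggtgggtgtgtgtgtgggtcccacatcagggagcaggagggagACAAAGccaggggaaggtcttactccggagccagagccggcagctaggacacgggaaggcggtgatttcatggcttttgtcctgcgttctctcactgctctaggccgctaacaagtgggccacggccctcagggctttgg
The intron of LMX1B gave the smallest p of the regions of that gene away from the start, with a fall in counts (chr1:267267961-267268160). Per base of called sequence its log2 fold change was 0.37.
LMX1B intron: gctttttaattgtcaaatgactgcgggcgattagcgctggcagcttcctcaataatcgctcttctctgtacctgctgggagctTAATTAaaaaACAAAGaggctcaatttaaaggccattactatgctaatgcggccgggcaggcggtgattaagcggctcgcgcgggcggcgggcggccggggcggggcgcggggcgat
The region upstream of NKX6-1 had peaks at E21 alone (chr8:134120357-134120556).
NKX6-1 upstream: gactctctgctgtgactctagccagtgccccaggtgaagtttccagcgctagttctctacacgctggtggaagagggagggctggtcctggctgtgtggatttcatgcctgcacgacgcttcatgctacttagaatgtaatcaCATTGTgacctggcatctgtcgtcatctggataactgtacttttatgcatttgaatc
The last sequence lies directly before the annotated start of PAX6, inside its broad open domain (chr2:28971365-28971564), and holds no match.
PAX6 before the start: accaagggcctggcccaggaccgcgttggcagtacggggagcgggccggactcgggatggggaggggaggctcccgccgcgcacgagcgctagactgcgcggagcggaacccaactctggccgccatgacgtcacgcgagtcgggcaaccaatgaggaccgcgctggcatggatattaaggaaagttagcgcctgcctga

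In windows of the same length at the centre of the 62183 tested regions away from gene starts, the E-box was found in 18.2%, ACAAAG in 15.7%, GGAATG in 14.1%, ACAATG in 8.61%, TAATTA in 4.14%, ATGCAAAT in 1.02% and TGGGTGGTC in 0.220%. Of the 200 bases before all 25858 annotated gene starts, 12.4% held the E-box, 9.56% ACAAAG, 8.02% GGAATG, 6.23% ACAATG, 3.11% TAATTA, 1.11% ATGCAAAT and 0.162% TGGGTGGTC. Over 300 bp at the centre of the regions at the 10 member starts, ACAATG was found in 2, ACAAAG in 3, GGAATG in 3 and the E-box in 2, and the other 3 motifs in none. Among all 16350 regions at gene starts the shares were 6.27%, 12.9%, 11.5% and 18.9% in the same order, and 2.35% for TAATTA, 0.869% for ATGCAAAT and 0.257% for TGGGTGGTC. The centres of broad member regions lay away from the start itself, by 6.2 kb for PAX6, 4.2 kb for LHX2 and 3.5 kb for MSX1. The 10 include the region before DBX1, which had peaks in 2 libraries alone and is not among the 16350. Among the 39 other tested member regions, the same 300 bp held ACAAAG in 9 (23.1%), the E-box in 7 (17.9%), GGAATG in 5 (12.8%), TAATTA in 3 (7.69%), ACAATG in 2 (5.13%) and the other motifs in none. Over all regions away from starts the shares at 300 bp were 22.5%, 25.4%, 20.1%, 6.41% and 12.7% in the same order, and 1.58% for ATGCAAAT and 0.309% for TGGGTGGTC. CpG content depended on where it was taken. Over the 300 bases before the start, the observed to expected ratio of CpG ranged from 0.609 (IRX3) to 0.975 (DBX1), against a median of 0.538 over all genes, and all 10 lay above that median. Over the 300 bp at the centre of the start regions, 6 of the 10 lay below the median of all start regions, 0.707, with SOX2 the lowest at 0.380. These are the same centres, which in broad regions lay kilobases from the start.

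After a filter of 2000 to 30000 counts per barcode, 9286 to 11243 barcodes and 89816504 to 133037579 counts per library were kept, with the lowest totals at E28. Counts are Tn5 cut sites inside the peaks of the library in question, and levels are given as CPM, counts per 1000000 kept counts of the library, for ZZ first and DZ second. Peaks had been called in each library separately, and the sequence they covered fell from 191 Mb in E18 ZZ to 102 Mb in E28 ZZ, so that the called length also enters the level of a window. Any 2 libraries shared 135 to 189 barcode sequences. Windows of myogenic genes were open in all libraries: MYOG, which drives muscle differentiation, was at 41.5 and 44.1 CPM at E18 and at 71.5 and 80.3 CPM at E28. In sums over a library, fewer cells of a type and less open chromatin per cell cannot be told apart.

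The first question was how open the 10 loci were at each stage. Between E18 and E28 the windows of 9 of the 10 genes fell, and none rose. The test was the edgeR quasi-likelihood test over the 6 libraries with terms for stage and breed, in which the 2 libraries of a stage are its replicates, and a result was called at a Benjamini-Hochberg adjusted p under 0.05 over all windows. Among all 24762 windows, 47.7% were called in either direction and 24.4% were called lower at E28. The median log2 fold change was -0.67 over the members and -0.02 over all windows. Each library is a pool from 1 sow, and p-values measure the spread between these libraries alone.

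SOX2, the progenitor factor, was at 113 CPM in E18 ZZ and 21.0 CPM higher in E18 DZ, at 118 and 86.9 CPM at E21 and 59.4 and 74.4 CPM at E28. Both E28 libraries lay below all others, and the window fell by 0.90 on the log2 scale between E18 and E28 (SE 0.180, edgeR adjusted p = 0.00903). Without E18 DZ the call was lost (log2 -0.75, edgeR adjusted p = 0.0651).

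Of the dorsal genes, MSX1 was at 123 and 120 CPM at E18, 88.6 and 72.9 CPM at E21 and 56.3 and 63.2 CPM at E28. The stages did not overlap, and the fall from E18 to E28 was 1.03 on the log2 scale, that is, log2 fold change -1.03 (SE 0.117, edgeR adjusted p = 0.00178). LMX1B, whose window of 123590 bp was the longest, was at 259 and 235 CPM at E18, 247 and 206 CPM at E21 and 188 and 157 CPM at E28. Its fold change was the smallest of those called (log2 -0.54, SE 0.0685, edgeR adjusted p = 0.00242). In LMX1B alone the ZZ library lay above the DZ library at every stage.

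Of the genes of the intermediate part, PAX6, needed for the identity of ventral interneurons and motor neurons as well as for the eye, was at 148 and 173 CPM at E18, 139 and 101 CPM at E21 and 61.4 and 99.9 CPM at E28. The window fell by 1.02 on the log2 scale (SE 0.242, edgeR adjusted p = 0.0160), and the breeds differed more at E28 than in most other members. It was at -0.64 without E28 ZZ and at -1.47 without E28 DZ, both called, and the call was lost without E18 DZ (edgeR adjusted p = 0.0739). DBX1, a factor of V0 interneuron progenitors, had the lowest levels of the 10, at 18.2 and 22.3 CPM at E18, 18.3 and 14.5 CPM at E21 and 11.3 and 14.0 CPM at E28 (log2 -0.69, SE 0.221, edgeR adjusted p = 0.0422). The DBX1 call was lost without E18 DZ, E18 ZZ or E28 ZZ (edgeR adjusted p = 0.313, 0.0978 and 0.135) and with barcodes of 4000 to 60000 counts (0.0542). IRX3, an Iroquois factor that represses OLIG2 in the ventral tube, was at 77.1 and 80.0 CPM at E18, 69.1 and 58.3 CPM at E21 and 49.5 and 51.6 CPM at E28. Its libraries of 1 stage stood close together at E18 and E28, and the fall was 0.65 on the log2 scale, log2 -0.65 (SE 0.104, edgeR adjusted p = 0.00442).

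Of the ventral genes, OLIG2 was at 58.7 and 61.0 CPM at E18, 47.4 and 44.1 CPM at E21 and 27.5 and 31.6 CPM at E28. The stages did not overlap, and OLIG2 had the smallest adjusted p of the 10 (log2 -1.03, SE 0.107, edgeR adjusted p = 0.00150). NKX2-2, a factor of the most ventral progenitors next to the floor plate, was at 65.4 and 68.8 CPM at E18, 60.6 and 49.5 CPM at E21 and 36.1 and 50.7 CPM at E28 (log2 -0.65, SE 0.175, edgeR adjusted p = 0.0249). The NKX2-2 window ranged from -0.36 without E28 ZZ to -0.97 without E28 DZ, and its call was lost without E28 ZZ, E18 DZ or E18 ZZ (edgeR adjusted p = 0.0684, 0.0946 and 0.0702) and with 2 kb in place of 20 kb on each side (0.0612). NKX6-1, which spans the ventral domains, was the member that did not pass: it was at 81.2 and 80.5 CPM at E18, 87.5 and 66.6 CPM at E21 and 58.0 and 76.1 CPM at E28 (log2 -0.28, SE 0.174, edgeR adjusted p = 0.223). Its E28 DZ library lay above its E21 DZ library. NKX6-1 was called without E28 DZ (log2 -0.60, edgeR adjusted p = 0.0135) and was at -0.00 without E28 ZZ. LHX2 is not one of the ventral genes. Its window was at 106 and 97.7 CPM at E18, 81.0 and 68.8 CPM at E21 and 60.3 and 71.9 CPM at E28 (log2 -0.63, SE 0.129, edgeR adjusted p = 0.00938), and at -0.28 with 2 kb on each side (edgeR adjusted p = 0.228). In windows of 2 kb on each side 7 of the 10 members were called, where 44.0% of all windows were.

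**Figure D1:**
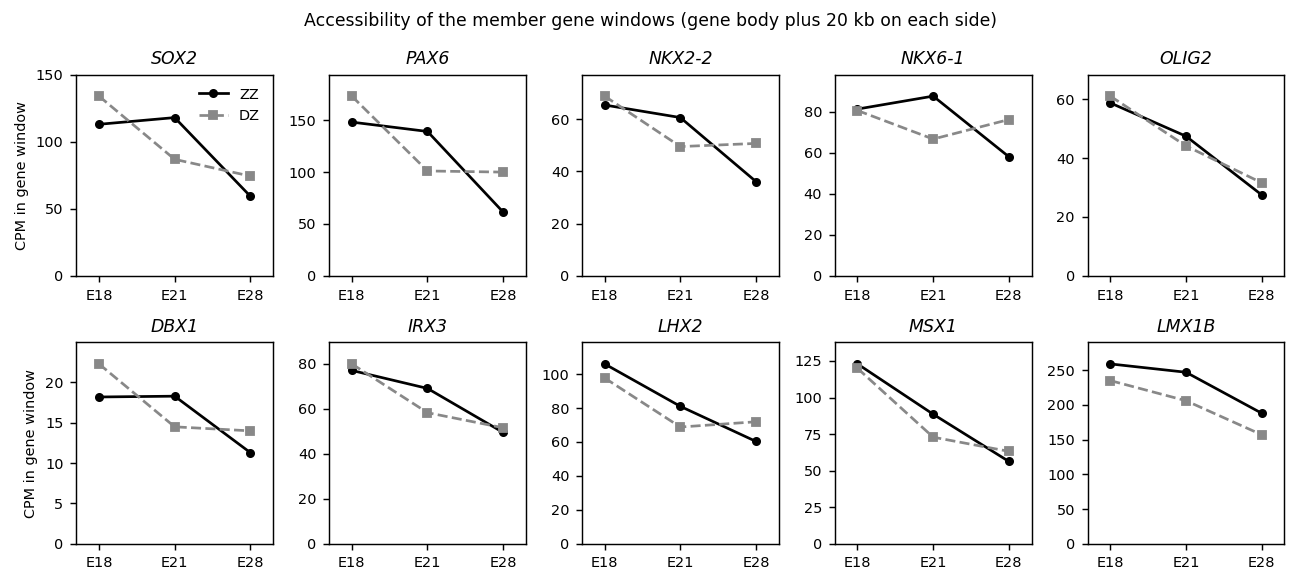
Level in CPM (vertical axis from 0) in the window of each gene at E18, E21 and E28, with ZZ libraries as black circles and DZ libraries as grey squares, 1 library per point. In all 10 panels both E28 points lie below both E18 points, a count that was not made over all windows. At E21 the DZ point lies below the ZZ point in all 10.

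These calls rest on counts over called sequence, and the called sequence shrank too. In E28 the peaks of the 10 windows covered between 0.470 (DBX1) and 0.722 (NKX6-1) times the length they covered at E18, with a median of 0.583, against a median of 0.609 over 24661 windows. With counts taken per covered base, none of the 10 was called (0 of 10, edgeR) where 81.3% of all windows were called and 80.8% were called higher at E28, and their log2 fold changes ran from -0.24 (OLIG2) to 0.40 (DBX1) where the median over all windows was 0.66. On that scale the members lay between the 1.39 percentile (OLIG2) and the 22.3 percentile (DBX1) of all windows. Without the E18 DZ library 5 of the 10 windows and 17.3% of all windows were called, and without each of the other libraries in turn 7 to 10 of the 10 and 31.1% to 45.4% of all.

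**Figure D2:**
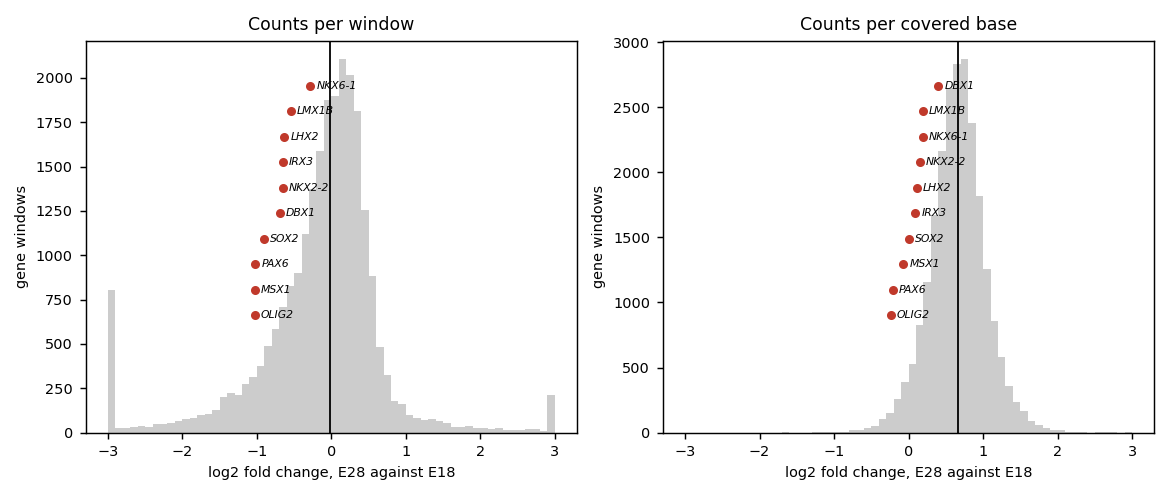
Histograms of the log2 fold change of all tested gene windows between E28 and E18 (horizontal axis; vertical axis, number of windows), from counts per window on the left and counts per covered base on the right, with values beyond the axis placed in the outermost bars. Black lines mark the medians (-0.02 and 0.66), and red points mark the 10 member genes, which lie left of the median in both panels.

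The step from E18 to E21 compared somites with somites. MSX1 was the only member window called (log2 -0.58, SE 0.116, edgeR adjusted p = 0.0390), where 9.05% of all windows were called, and the log2 fold changes of the 10 members ran from -0.58 to -0.06. From E21 to E28, OLIG2 (log2 -0.66, SE 0.107, edgeR adjusted p = 0.0192) and LMX1B (log2 -0.42, SE 0.0684, edgeR adjusted p = 0.0194) were called, against 11.4% of all windows. The 10 members then ran from -0.66 to -0.20. Counts of calls in both steps depended on single libraries. Without E28 DZ or without E28 ZZ, 3 windows were called between E21 and E18, and none was called without any one of the E18 and E21 libraries. Of all windows, 24.4% and 22.2% were called without E28 DZ and E28 ZZ, and 0.00402% to 1.68% without an E18 or E21 library. Between E28 and E21, 6 were called without E28 DZ (7.88% of all windows) and none without E21 ZZ (0.682%).

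The next question was whether the changes lay at the gene starts or in the sequence around them. The regions at member starts were broad. The widest was that of PAX6, 18512 bp (chr2:28968488-28986999), which took in the start and the first part of the gene, followed by MSX1 with 14281 bp (chr8:5628769-5643049), LMX1B with 11417 bp (chr1:267201910-267213326), LHX2 with 11196 bp (chr1:264899493-264910688), IRX3 with 10775 bp (chr6:31040372-31051146) and NKX2-2 with 10380 bp (chr17:29272498-29282877). NKX6-1 had 9642 bp (chr8:134132228-134141869), OLIG2 6801 bp (chr13:196595117-196601917) and SOX2 3993 bp (chr13:119665633-119669625). The median width of the 16350 regions at gene starts was 2265 bp, and 8 of these 9 lay at or above the 96.4 percentile, with SOX2 at the 85.2 percentile. DBX1 was the exception: the region just before its annotated start (chr2:39229221-39229380) held a peak in 2 libraries alone, at 0.180 CPM in E18 ZZ and 0.243 CPM in E28 DZ, and was not tested. The IRX3 region also holds the start of LOC110261350, so its counts belong to both starts.

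Of the 10 tested regions at starts or up to 2 kb before them, 5 fell between E18 and E28 and none rose. Among all regions, 37.1% were called in either direction and 18.1% were called lower, and of the regions at gene starts 17.2% were called lower. The median log2 fold change of the member starts was -0.78, against 0.06 over all regions at starts. Per covered base, 3 of these 5 (SOX2, OLIG2 and a region before LHX2) were still called lower. OLIG2 fell from 44.0 and 46.5 CPM at E18, through 36.5 and 35.6 CPM at E21, to 23.1 and 24.1 CPM at E28 (log2 -0.99, SE 0.0944, edgeR adjusted p = 0.00307). The libraries of each stage lay close together and the stages did not overlap. MSX1 went from 76.2 and 74.9 CPM through 58.1 and 49.8 CPM to 40.0 and 44.2 CPM (log2 -0.89, SE 0.109, edgeR adjusted p = 0.00437). IRX3 went from 66.3 and 70.6 CPM through 61.9 and 53.2 CPM to 48.0 and 50.8 CPM (log2 -0.52, SE 0.100, edgeR adjusted p = 0.0126). SOX2 went from 34.6 and 42.0 CPM through 32.9 and 27.7 CPM to 19 and 25.2 CPM (log2 -0.85, SE 0.171, edgeR adjusted p = 0.0143). In these 4 the E28 libraries were the lowest. The 5th was a separate region before LHX2 (chr1:264895238-264898974), at 18.6 and 17.5 CPM at E18 and 10.5 and 11 CPM at E28 (log2 -0.79, edgeR adjusted p = 0.0183).

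The other starts did not pass in edgeR. PAX6 was at 88.6 and 104 CPM at E18 and at 46.0 and 72.2 CPM at E28 (log2 -0.76, SE 0.237, edgeR adjusted p = 0.0509). NKX2-2 was at 34.2 and 38.6 CPM at E18 and at 12.2 and 26.0 CPM at E28 (log2 -1.02, SE 0.326, edgeR adjusted p = 0.0546), and its ZZ and DZ libraries at E28 had the largest ratio between them of the member starts. DESeq2 called both PAX6 (adjusted p = 0.00119) and NKX2-2 (adjusted p = 0.00263). Both values turned on single E28 libraries: without E28 DZ the log2 fold changes were -1.19 and -1.69 (edgeR adjusted p = 0.00180 and 5.54e-04), and without E28 ZZ they were -0.38 and -0.46 (edgeR adjusted p = 0.109 and 0.0625). The values for NKX6-1 (log2 -0.27, adjusted p = 0.249) and the region over the start of LHX2 (log2 -0.32, adjusted p = 0.0880) were smaller. LMX1B was at 52.7 and 52.6 CPM at E18, 55.2 and 43.8 CPM at E21 and 49.6 and 57.4 CPM at E28, with a log2 fold change of -0.02 (SE 0.137, edgeR adjusted p = 0.901), and of the member starts it had the value nearest to 0.

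Away from the starts, 17 of the 39 tested member regions fell between E18 and E28 and none rose, where 18.4% of all regions away from starts were called lower. Their median log2 fold change was -0.77, against -0.06 over all regions away from starts. Per covered base the directions were mixed: over all 49 tested member regions, 8 were called lower and 8 higher, where 51.7% of all regions were called, and all 8 called higher lay away from the starts. IRX3 had the largest change, 9.7 kb downstream of its start (chr6:31053384-31055850), from 6.56 and 7.59 CPM at E18 and 5.86 and 3.78 CPM at E21 to 1.55 and 0.780 CPM at E28 (log2 -2.74, SE 0.373, edgeR adjusted p = 0.00540). PAX6 had a second broad region over its later exons, 19.2 kb from the start (chr2:28987661-28993944), which went from 33.0 and 39.0 CPM through 27.3 and 18.7 CPM to 7.38 and 14.0 CPM (log2 -1.82, SE 0.332, edgeR adjusted p = 0.0108). LHX2 had a region downstream of the gene (chr1:264928477-264929973) that went from 7.81 and 6.88 CPM to 2.25 and 2.32 CPM (log2 -1.72, SE 0.310, edgeR adjusted p = 0.0105). MSX1 had a downstream region (chr8:5618642-5622580) that went from 7.79 and 7.37 CPM to 3.70 and 3.43 CPM, and was already at 3.64 and 3.66 CPM at E21 (log2 -1.14, SE 0.25, edgeR adjusted p = 0.0181). In all 4 the E28 libraries lay below the E18 libraries. Per covered base, where the median over all regions was 0.42, the PAX6 region (log2 -0.71) and the LHX2 region (-0.87) were still called lower, the IRX3 region was at -0.02 (edgeR adjusted p = 0.966), and the MSX1 region turned to 0.80.

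SOX2 had 8 tested regions, 4 of them called. Upstream, a region 12.6 kb before the start (chr13:119654518-119657331) went from 8.88 and 10.8 CPM at E18 to 5.28 and 4.6 CPM at E28 (log2 -1.05, SE 0.257, edgeR adjusted p = 0.0250), a direction that turned to 0.96 per covered base. Downstream, the region at 13.4 kb (chr13:119677725-119686025) was at 39.8 and 49.5 CPM at E18, 46.4 and 31.6 CPM at E21 and 18.5 and 27.9 CPM at E28 (log2 -1.0, edgeR adjusted p = 0.0303). It was 8301 bp wide and held more counts than the start region in all libraries but E28 ZZ. The region at 6.8 kb (chr13:119673781-119676797) went from 8.88 and 8.72 CPM to 1.54 and 4.2 CPM (log2 -1.72, edgeR adjusted p = 0.0432). Per covered base neither was called, at -0.28 for the region at 13.4 kb (adjusted p = 0.112) and -0.08 for the one at 6.8 kb (adjusted p = 0.799). DBX1 was open mainly at 2.4 kb inside the gene (chr2:39230416-39233120), at 13 and 16.7 CPM at E18 and 8.36 and 9.83 CPM at E28 (log2 -0.75, SE 0.218, edgeR adjusted p = 0.0409; 0.57 per covered base).

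LMX1B had the most regions, 26 of which 13 were tested, and 7 of them fell while its start was at -0.02. Per covered base 3 of these 7 were still called lower and 1 was called higher (chr1:267229181-267233870, log2 0.49, edgeR adjusted p = 0.0377). In its intron, 59.6 kb from the start (chr1:267265045-267268793), levels went from 12 and 10.6 CPM at E18 and 7.17 and 7.03 CPM at E21 to 3.37 and 3.33 CPM at E28 (log2 -1.80, SE 0.230, edgeR adjusted p = 0.00468; 0.37 per covered base). Another intronic region (chr1:267272323-267274183) was at 10.8 and 10.6 CPM at E18 and at 18.0 and 12.4 CPM at E28 and did not pass (log2 0.45, edgeR adjusted p = 0.141), while per covered base it was called higher (log2 0.91, adjusted p = 4.09e-04). The start of LMX1B held 20.4% and 22.4% of the counts of its window at E18 and 26.4% and 36.6% at E28. The share at the start was higher at E28 than at E18 in 8 of 9 members in ZZ and in 7 of 9 in DZ, with DBX1 left out. For IRX3 it went from 86.1% and 88.2% to 96.9% and 98.5%, and for NKX2-2 it went down, from 52.4% and 56.2% to 33.9% and 51.3%. The start had a higher log2 fold change than the median of the other tested regions of the gene in 7 of these 9 members and a lower one in 2, NKX2-2 and OLIG2. No test of this difference was made, and neither count was taken over all genes. A region without a called peak in a library adds nothing to its window, so the share at the start also depends on peak calling. For IRX3, 6 and 5 other regions had a peak at E18 and 1 and 1 at E28.

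**Figure D3:**
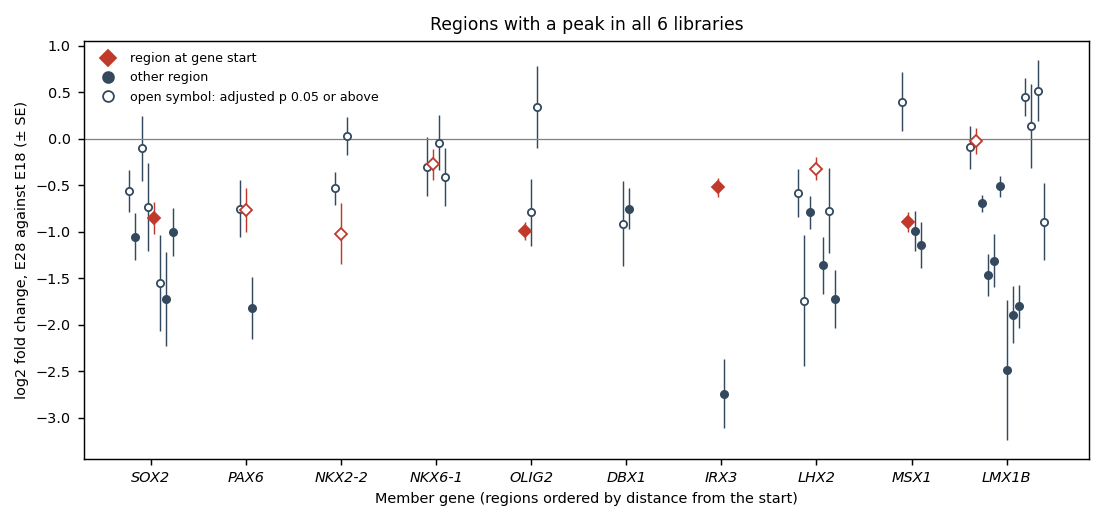
Log2 fold change between E28 and E18 with its SE (vertical axis) for the 49 member regions with a peak in all 6 libraries, ordered within each gene by distance from the start, with red diamonds for the regions over the start and dark circles for the others. Filled symbols passed the threshold; all 22 filled symbols lie below 0 (per covered base, 8 regions were called lower and 8 higher), and the diamond of LMX1B lies at -0.02 beside 7 filled circles.

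**Figure D4:**
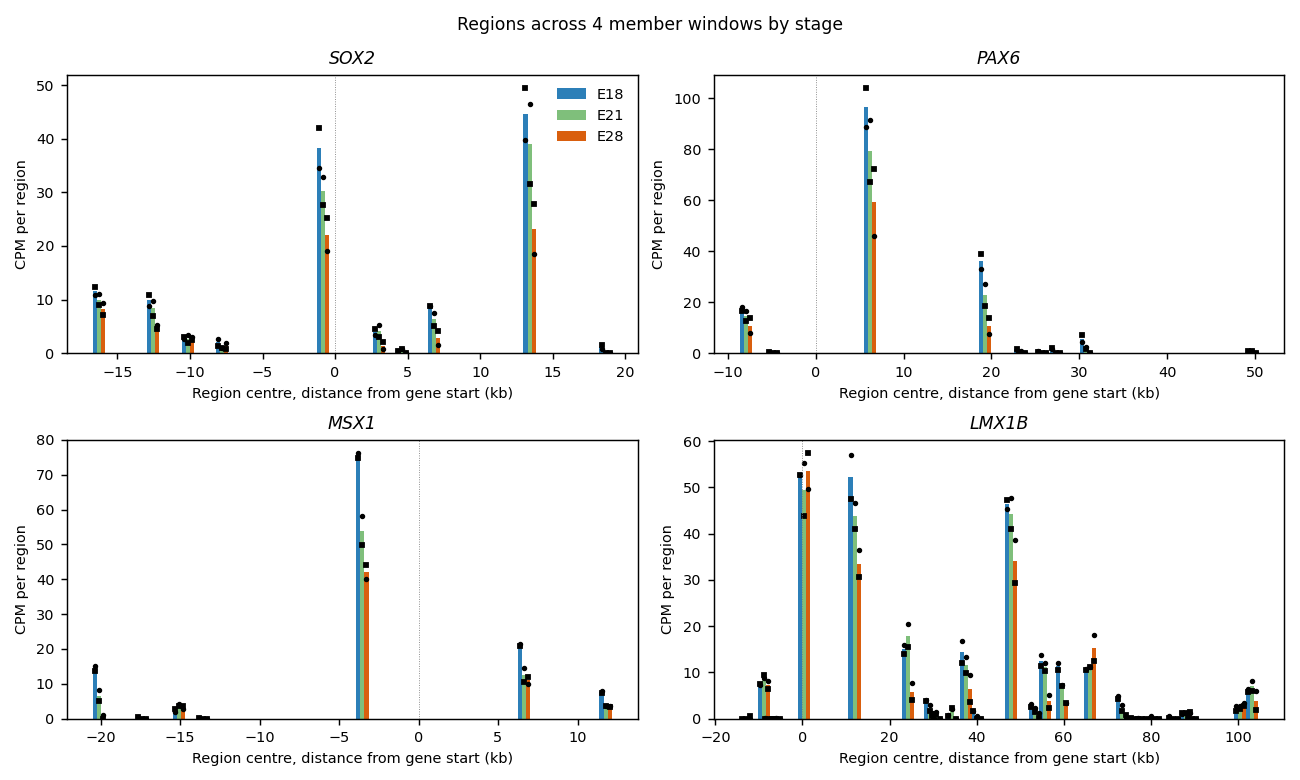
Mean CPM of ZZ and DZ per region (bars, vertical axis from 0; circles ZZ, squares DZ) against the distance of the region's centre from the gene start in kb, for SOX2, PAX6, MSX1 and LMX1B at E18 (blue), E21 (green) and E28 (orange). SOX2 has a peak of 49.5 CPM at 13.4 kb downstream next to one of 42.0 CPM at the start (E18 DZ), and the MSX1 region at 20.1 kb upstream, 15.2 CPM in E18 ZZ, has no visible bar at E28.

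In all, 22 of the 49 tested regions were called between E28 and E18, all lower, where 37.1% of all regions were called and 18.1% were called lower. Between E21 and E18, 1 was called, the start of MSX1, where 6.47% of all regions were called. Between E28 and E21, 6 were called, all lower, where 7.04% of all regions were called. Per covered base that comparison called 9, of which 8 were higher and 1 lower, where 31.1% of all regions were called. The highest E28 value lay below the lowest E18 value in 36 of the 49, a count that was not made over all regions. These counts moved with single libraries: between E28 and E18, 12 regions were called without E18 ZZ and 5 without E18 DZ, where 20.9% and 10.5% of all regions were called. For E21 against E18, none was called without any one of the E18 and E21 libraries, 14 without E28 DZ and 13 without E28 ZZ. Of all regions, 0% to 1.92% were called without an E18 or E21 library, and 21.7% and 21.3% without E28 DZ and E28 ZZ. Between E28 and E21, none was called without either E21 library, 3 without either E18 library, 14 without E28 DZ and 10 without E28 ZZ. Of all regions, 0% were called without either E21 library, 4.47% and 4.88% without E18 DZ and E18 ZZ, 8.59% without E28 DZ and 20.6% without E28 ZZ.

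Regions that lacked a peak in some libraries are listed at 0 there and were not tested. Of the 95 member regions, 41 (43.2%) had no peak at E28, against 49.6% of all regions. Peaks in both E18 and both E21 libraries and in no E28 library were found for 12 (12.6%, against 9.14% of all regions), and 13 had peaks in both E18 libraries alone (13.7% against 12.7%). None had peaks in both E28 libraries alone, which holds for 2.23% of all regions. The region 20.1 kb upstream of MSX1 (chr8:5651071-5653902) was at 15.2 and 13.6 CPM at E18, 8.08 and 5.12 CPM at E21, 1.02 CPM in E28 ZZ and listed at 0 in E28 DZ. Of the regions open at E18 alone, the one with most counts lay over an exon of PAX6 (chr2:28998652-28999188), at 1.56 and 2.02 CPM. OLIG2 (chr13:196605762-196607194, 2.13 and 1.35 CPM), SOX2 (chr13:119686866-119687359, 0.729 and 1.48 CPM) and LHX2 (chr1:264917602-264918002, 0.834 and 0.898 CPM) each had one as well. NKX6-1 had the only member region with peaks in both E21 libraries and in no other, 16.6 kb upstream (chr8:134120261-134120661), at 0.936 and 0.853 CPM. This pattern held for 1.05% of the member regions, against 2.21% of all regions. A second region upstream of NKX6-1 (chr8:134125870-134126596) was at 1.91 and 1.69 CPM at E18, 4.78 and 5.24 CPM at E21 and 1.71 and 1.33 CPM at E28, so that both E21 libraries lay above the others. It had a peak in all 6 libraries and was tested. It was called lower between E28 and E21 (log2 -1.72, edgeR adjusted p = 0.0405) and was not called between E21 and E18 (log2 1.42, edgeR adjusted p = 0.0580). A region 17.7 kb downstream of the NKX6-1 start holds the starts of LOC102164773 and LOC110262021, and a region 49.7 kb downstream of the PAX6 start (chr2:29021043-29021440) lies in ELP4.

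The breed comparison asked whether ZZ and DZ embryos differed. No member window and no member region was called (0 of 10 and 0 of 49, edgeR), where 0% of all windows and 0% of all regions were called. At an unadjusted p under 0.05, edgeR gave 1 window, LMX1B (log2 DZ against ZZ -0.19, SE 0.0558, edgeR adjusted p = 0.751), and 3 of the 49 regions, and 1612 of all windows and 3857 of all regions. DESeq2 called 1 of the 10 windows and none of the 49 regions, where it called 3.20% of all windows and 0.202% of all regions. The log2 differences of the windows ran from -0.19 to 0.18, and 2 SE on either side reached from -0.21 to 0.58 for PAX6, the widest range, and from -0.30 to -0.08 for LMX1B, the only range that left out 0.

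Within stages the breeds differed in a way that an average over stages does not show. At E21 the DZ library was the lower in all 10 member windows, with a median log2 ratio of DZ to ZZ of -0.29, where DZ was the lower in 56.9% of all windows. At E28 DZ was the lower in 1 of the 10, LMX1B, with a median log2 ratio of 0.27, where DZ was the lower in 54.1% of all windows. At E18 DZ was the lower in 4 of the 10. In the other neural lists at E21, DZ was the lower in 17 of 17 windows of other progenitor domain factors, 7 of 7 proneural windows and 17 of 17 windows of genes of postmitotic neurons, and it was the higher in 8 of 9 mesenchyme and fibroblast windows, with summed levels of 804 CPM in DZ and 708 CPM in ZZ. DZ was also the lower at E21 in 5 of 6 neural crest and glia windows and 4 of 6 sclerotome and cartilage windows. The same held for 4 of 6 endothelial, 4 of 7 epithelial and 6 of 10 myogenic windows. At E28 DZ was the lower in 8 of 17 windows of progenitor domain factors, 5 of 7 proneural windows and 4 of 17 windows of postmitotic neurons. The myogenic windows at E28 had DZ the higher in all 10, with a summed level of 798 CPM in DZ and 602 CPM in ZZ. The windows of MYF5 and MYF6 overlap, so these 10 are not all separate loci and the sums count shared peaks more than once. The part of tissue composition in the member values was not tested, and each of these differences is between 2 libraries with no replicate.

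Single barcodes were then used to ask which windows were open together with SOX2. Each barcode was thinned to 2000 fragments, and barcodes with fewer were left out, which kept 7910 to 10822 barcodes per library. At this depth the SOX2 window held at least 1 fragment in 19.4% of the E18 ZZ barcodes and 22.3% of the E18 DZ barcodes. The shares were 19.6% and 14.9% for the E21 libraries, then 10.9% and 13.1% for those of E28. LMX1B, with the longest window, held one in 25.2% to 38.1%, and DBX1 in 2.28% to 4.23%. No barcode had more than 8 of the 10 windows open, and at E28 those with none were the second most frequent, at 32.0% and 28.8%. Most values per barcode are 0 or 1, so a window without a fragment is not a closed window.

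Barcodes with 2 or more thinned fragments in the SOX2 window were taken as SOX2-open: 299 and 338 from the E18 libraries, 245 and 163 from those of E21, and 67 and 95 from those of E28. Their median counts were close to those of the other barcodes, at 10533 against 11168 in E18 ZZ and 9412 against 10441 in E28 DZ. Counts were summed per library over SOX2-open and other barcodes and tested with edgeR with library as a block, leaving out chromosome 13, which holds SOX2 and also OLIG2. Of the 8 members left, 4 were higher in SOX2-open barcodes and none was lower, where 2.51% of all windows were called higher. PAX6 rose most (log2 0.53, SE 0.0804, edgeR adjusted p = 9.40e-05), followed by IRX3 (log2 0.32, SE 0.0800, adjusted p = 0.0164), NKX2-2 (log2 0.29, SE 0.0818, adjusted p = 0.0368) and MSX1 (log2 0.26, SE 0.0769, adjusted p = 0.0490). DBX1 (log2 0.45, SE 0.166, adjusted p = 0.143), NKX6-1 (0.09, adjusted p = 0.659), LMX1B (0.06, adjusted p = 0.704) and LHX2 (-0.08, adjusted p = 0.654) were not called. DESeq2 called 2 of the 8, where it called 4.59% of all windows in either direction against 3.64% in edgeR. With windows of 2 kb on each side, where 10 to 41 barcodes per library were SOX2-open, none of the 8 and 0.0326% of all windows were called, and those of IRX3 and MSX1 turned to -0.03. Without E18 ZZ 2 were called (2.43% of all windows), and 1 was called without E21 ZZ (1.2%) or without E21 DZ (1.38%).

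In thinned fragments, PAX6 held 388 fragments per 1000 SOX2-open barcodes and 298 per 1000 others in E18 ZZ, 485 and 333 in E18 DZ, 498 and 268 in E21 ZZ and 393 and 195 in E21 DZ. At E28 it held 74.6 and 122 in ZZ, the reverse direction, and 221 and 189 in DZ, with 67 and 95 barcodes behind these values. IRX3 had a ratio above 1 in 6 of 6 libraries, from 1.01 to 1.89. Of the listed genes, SOX3, the sister factor of SOX2 in neural progenitors, had the highest median ratio over the 6 libraries (1.83, from 0.426 to 3.56), with a lowest ratio below 1.

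**Figure D5:**
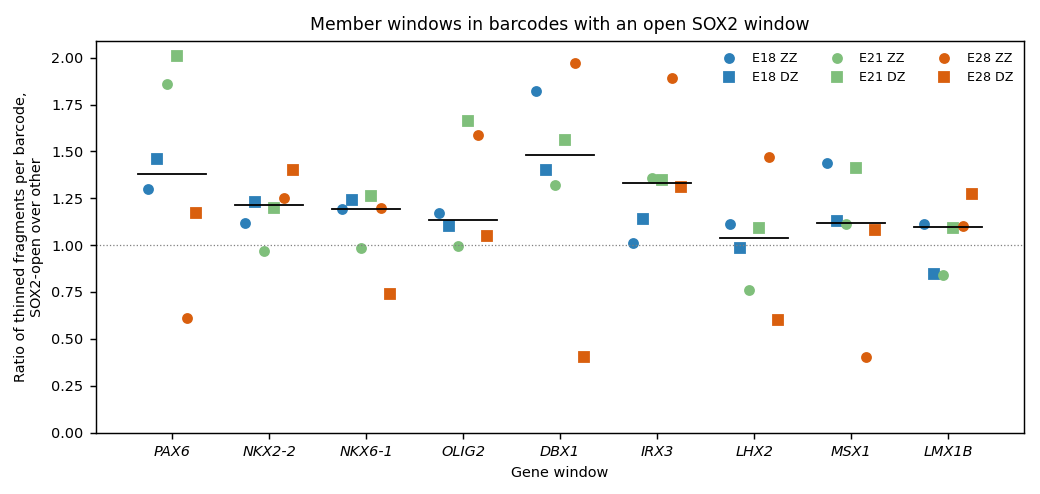
Ratio of thinned fragments per barcode between SOX2-open and other barcodes (vertical axis from 0) for the windows of the other 9 members, 1 point per library (circles ZZ, squares DZ; blue E18, green E21, orange E28), with black bars at the median. The medians run from 1.04 (LHX2) to 1.48 (DBX1), with points on both sides of 1 for most genes.

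Genes of related lists give the surroundings of these results. Between E18 and E28, 6053 of all 24762 windows (24.4%) were called lower and 5758 were called higher. Of 17 other factors of progenitor domains, 10 fell between E18 and E28 and 1 rose (median log2 -0.73). Among those that fell were NKX6-2 (log2 -1.13), SOX3 (log2 -1.93) and NKX2-8 (log2 -1.52). The 1 that rose was ZIC1 (log2 0.72, edgeR adjusted p = 0.0371, and 0.71 per covered base). Of 7 proneural genes, 6 fell (median -1.04), with PTF1A at -1.79 and NEUROG1 at -1.30. Of 17 tested genes of postmitotic neurons, 9 fell and 1 rose (median -0.35), with ELAVL4, an RNA-binding protein of neurons, at -1.78, LHX5 at -2.13 and NEUROD1 at -1.20. The 1 that rose was STMN2 (log2 0.97, edgeR adjusted p = 0.00366, and 0.74 per covered base). STMN2 was already called higher at E21 than at E18 (log2 1.17, edgeR adjusted p = 0.0183). ELAVL3 was at 0.19 and was not called (edgeR adjusted p = 0.106). Of 10 tested myogenic genes, 4 rose and 1 fell (median 0.51), with MYOG at 0.81 and CHRNA1, a subunit of the muscle acetylcholine receptor, at 0.97, while DES was at -0.55. Of 9 mesenchyme and fibroblast genes, 6 rose (median 0.54), with COL1A2 at 0.76, LUM at 1.78 and DCN at 1.74. Per covered base, several of the falls turned: LHX5 was at 0.94 (edgeR adjusted p = 1.42e-05), PTF1A at 0.45 (adjusted p = 0.0305), ELAVL4 at 0.35 (adjusted p = 0.0323), SOX3 at 0.22, NKX6-2 at 0.17, DES at 0.07 and NEUROG1 at 0.01, while NKX2-8 was at -0.18 and NEUROD1 at -0.05, where the median over all windows was 0.66. MYOG (0.90), CHRNA1 (1.33), LUM (0.94) and DCN (1.07) lay above that median, and COL1A2 (0.58) lay below it. On this scale 80.8% of all windows were called higher, so a value above 0 does not set these genes apart.

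Among genes of other cell types, 3 of 7 epithelial windows fell, led by KRT8 (log2 -1.42) and KRT18 (log2 -2.22), and 3 of 6 endothelial windows fell while 1 rose, with CDH5 at -1.03 and ERG at 0.56. Per covered base KRT8 was at 0.14, KRT18 at -0.32 (edgeR adjusted p = 0.0504), CDH5 at 0.63 and ERG at 0.73. Of 6 sclerotome and cartilage genes, 1 fell (ACAN, log2 -0.74, and -0.04 per covered base). Of 6 genes of neural crest and glia, 1 fell and 1 rose (ERBB3, log2 0.29). These counts stand against 24.4% of all windows called lower. In SOX2-open barcodes, 2.51% of all 23253 windows were called higher and 262 windows were called lower. There 6 of 7 proneural windows were higher, led by NEUROG2 (log2 0.59, edgeR adjusted p = 3.33e-05). So were 5 of 15 other progenitor factors, among them SOX3 (log2 0.66), PAX3 (log2 0.34) and GSX2 (log2 0.47). Of the 9 mesenchyme and fibroblast windows, 5 were lower there, with COL1A1 at -0.29. Of the 17 genes of postmitotic neurons, 3 were higher, with ELAVL4 at 0.39. None of the myogenic, sclerotome, endothelial, epithelial or neural crest windows was called in either direction. Summed over the library, the proneural windows were at 606 and 666 CPM at E18 and 375 and 362 CPM at E28, and the members at 1050 and 1073 CPM at E18 and 608 and 690 CPM at E28.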

How the data were processed

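Each of the 6 libraries was deposited as a matrix of counts per peak and barcode, made by the authors with Cell Ranger ATAC on an Sscrofa11 reference with peaks called per library. Seurat 3.1.1 and Signac 0.2.2 are also named in the submitters' processing notes. The deposited counts are Tn5 cut sites: 90.1% to 92.4% of values were even. Barcodes with 2000 to 30000 counts were kept, 58809 of 64439. No doublet caller was run. Counts were summed per library over regions (peaks merged at 1 bp) and over gene windows (gene body and 20 kb on each side, RefSeq release 106). Regions up to 2 kb before a start, or over it, were taken as start regions ahead of exons. Sums were tested in edgeR 4.0.16 (TMM, filterByExpr, quasi-likelihood) under R 4.3.3 with terms for stage and breed, which left 2 residual degrees of freedom. SE is the absolute log2 fold change divided by the square root of F. DESeq2 1.42.0 and the other alternatives, among them counts per covered base and leaving out each library, are described at the end. The scripts were tested on simulated data.

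The members and lists were chosen with earlier results of these data known. By rule, the text names the start region of each member, its other tested region with the smallest p between E28 and E18, up to 5 regions open at 1 stage, up to 3 genes per list, and the 3 listed genes with the highest ratio in SOX2-open barcodes. Some genes that this rule names are not reported here. Other regions and genes given with values were chosen after their values were seen. Of 88 listed genes, 85 were in the annotation.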

Additional observations from a re-analysis of the deposited data

Results flagged for a closer look

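In several member loci the ZZ and DZ libraries moved in opposite directions between stages. Each moved by more than the counting error of cut sites and by more than 0.1 on the log2 scale. With 1 library per stage and breed the difference was not tested. Cut sites mostly come in pairs from the same fragment, so this counting error is understated. It also does not cover the spread between sows or litters. The share of all loci with such moves was not counted.

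From E21 to E28, the starts of 5 members were lower in ZZ and higher in DZ. The log2 ratios were -0.99 in ZZ and 0.11 in DZ for PAX6, -1.28 and 0.17 for NKX2-2, -0.51 and 0.20 for NKX6-1, -0.13 and 0.16 for LHX2, and -0.15 and 0.39 for LMX1B. The window of NKX6-1 did the same (-0.59 in ZZ and 0.19 in DZ), as did its region 17.7 kb downstream (-0.45 and 0.75) and the region downstream of OLIG2 (-0.96 and 0.26).

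From E18 to E21, the direction was higher in ZZ and lower in DZ. The log2 ratios were 0.11 in ZZ and -0.27 in DZ for the window of NKX6-1, 0.13 and -0.29 for its start, and 0.14 and -0.62 for the region 12.6 kb before SOX2. The interval of the SOX2 value in ZZ, 0.02 to 0.26, nearly reached 0. All 11 pairs share the E21 libraries, in which DZ was the lower in all 10 member windows.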

How the results depend on the processing

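Of the member regions, 22 were called between E28 and E18 (5 to 30 when each library was left out in turn), all lower. Per covered base 16 were called, 8 lower and 8 higher. Between E21 and E18 1 was called, against 8 with DESeq2, 0 with regions of any library, 5 per covered base and 3 without the breed term (0 to 14 with a library left out), where these called 18.1%, 0%, 18.1% and 7.54% of all regions. Between E28 and E21 6 were called, against 11 with DESeq2, 0 with regions of any library and 9 per covered base, 8 of them higher (0 to 14), where these called 19.7%, 0% and 31.1% of all regions. Of the windows, 9 were called between E28 and E18, against 0 per covered base (5 to 10). Between E21 and E18 1 was called, against 4 with DESeq2, 0 per covered base and 0 with 2 kb windows (0 to 3), where these settings called 37.3%, 30.9% and 3.28% of all windows. Between E28 and E21 2 were called, against 4 with DESeq2 and 0 per covered base (0 to 6), where these called 36.3% and 62.7% of all windows. Between breeds no window was called, against 1 with DESeq2 (0 to 0 for windows and for regions). In SOX2-open barcodes 4 members were called, against 2 with DESeq2 and 0 with 2 kb windows (1 to 4), where 3.64%, 4.59% and 0.0326% of all windows were called.

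Per covered base, these log2 fold changes between E28 and E18 were at or above 0. On that scale the medians were 0.66 over all windows and 0.42 over all regions, and 80.8% of all windows were called higher. Windows were at 0.00 (SOX2), 0.15 (NKX2-2), 0.19 (NKX6-1), 0.40 (DBX1), 0.09 (IRX3), 0.11 (LHX2) and 0.19 (LMX1B). Starts were at 0.07 (NKX2-2), 0.08 (LHX2) and 0.22 (LMX1B), and the other named regions at 0.96 (SOX2), 0.26 (NKX6-1), 0.03 (OLIG2), 0.57 (DBX1), 0.80 (MSX1) and 0.37 (LMX1B). The start of LMX1B was at 0.05 with regions of any library and ranged from -0.24 to 0.19 with a library left out, with 0.19 without E28 ZZ. In SOX2-open barcodes, 2 kb windows turned IRX3 (-0.03), MSX1 (-0.03) and LMX1B (-0.20), and LHX2 turned to 0.07 with 1 or more fragments and to 0.12 without thinning. The causes were not tested. No further pairing of libraries was possible because every group holds replicate number 1 alone. Breed was already a term of the fit, and its omission is given above. The SOX2-open comparison was paired within libraries through the block. RLE size factors left 5 in place of 6 regions called between E28 and E21, and the omission of the low-count filter left each count of member regions and windows called as it was.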
